A study of Mus musculus with 6 samples.

Results

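The fatty acid oxidation genes described here are 40 genes given by symbol, of 31053 genes in the count matrices, and each was followed through the segments of the renal tubule. The list holds 21 genes of mitochondrial beta-oxidation, 12 of the peroxisomal pathway and 7 that act before or around both (uptake, activation, cytosolic enzymes and regulators). All 40 were found in the matrices. The data are droplet-based single-nucleus RNA-seq of kidney cortex from FVB/N mice. The 3 knockout libraries came from Podocin-Cre Klf4 fl/fl mice and the 3 control libraries from Klf4 fl/fl mice, so both groups carry the floxed Klf4 alleles and differ in the Cre transgene. Podocin is a podocyte gene, and its promoter directs this Cre to podocytes of the glomerulus, not to the tubule. Klf4 encodes a Krüppel-like transcription factor. The labels give no age, sex or time point.

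Beta-oxidation shortens fatty acids step by step into acetyl-CoA. Mitochondria oxidise most long- and medium-chain fatty acids after the carnitine shuttle has carried them in, whereas peroxisomes shorten very long-chain and branched fatty acids, which leave as carnitine esters or free acids. Proximal tubule cells rely on fatty acids as fuel, and the nuclear receptor PPAR-alpha (Ppara) with its coactivator PGC-1-alpha (Ppargc1a) drives many of these genes.

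A total of 54348 nuclei passed quality control, 34022 of them in 9 tubule classes named from markers. The proximal tubule gave 6520 nuclei of segment S1, 8728 of S2 and 5401 of S3, ordered from the glomerulus onward. A further 2771 nuclei formed an injured tubule class, and 10602 lay in 5 distal classes: thick ascending limb (TAL), distal convoluted tubule (DCT), connecting tubule (CNT), principal cells (PC) and intercalated cells (IC). The 40 members were left out of the genes used to cluster and name the nuclei. Another 10456 nuclei of proximal clusters fitted no single segment and were not used. Levels are given as CPM, the unique molecular identifiers (UMIs) of a gene per 1000000 UMIs summed over one class in one library. CPM is not corrected for gene length, so levels were compared between classes and libraries and not between genes.

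Both libraries numbered 1 stood apart before any comparison. They held 18224 nuclei in knockout 1 and 16621 in control 1, against 3747 to 5807 in the other 4. Their median share of mitochondrial UMIs was 1.11% and 2.54%, against 0.0852% to 0.163%. Pairs of libraries shared between 5 and 132 cell barcodes, with the highest counts for knockout 1 with control 1 (132) and knockout 3 with control 3 (74). Klf4 itself was too sparse to check the labels: podocyte nuclei held 3, 0 and 1 Klf4 UMIs in the knockout libraries and 1, 0 and 0 in the control libraries. The injured class took 10.4%, 9.39% and 5.53% of nuclei in the knockout libraries, against 0.415%, 0.240% and 0.297% in the control libraries. These shares did not overlap, and the exact permutation test gave p = 0.1, the smallest that 3 against 3 libraries allow (two-sided).

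The class names were checked against their markers. The summed level of the 8 S1 markers was 5167 to 8504 CPM in S1 and 1661 to 2770 CPM in S3. The 8 S3 markers ran the other way, with 7426 to 11860 CPM in S3 and 1392 to 2131 CPM in S1. S2 was less sharply marked. Its 5 markers summed to 1649 to 3206 CPM in S2, to 1287 to 2479 CPM in S1 and to 862 to 2466 CPM in S3. The 9 injury markers reached 2227 to 2267 CPM in the injured class of the knockout libraries. The 7 TAL markers summed to 24579 to 31823 CPM in TAL and 718 to 1639 CPM in S1 to S3.

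The promoters of 5 members are shown first, a choice made with the values known that leaves out Acox2, Crot and Acox3. For Acaa1b and Acaa1a, neighbouring genes for 2 peroxisomal thiolases, they show how far the copies differ upstream. For Acsm3, Ehhadh and Acadm they show the start of genes whose level depended on segment, library or both. Each window runs from 250 bases before to 50 bases after the start of the gene in RefSeq (GRCm38.p6) and is written on the gene's own strand. Capitals mark CCAAT (the box bound by NF-Y) and AGGTCA (the half-site of nuclear receptors such as PPAR-alpha) on either strand, so that ATTGG and TGACCT are capitals too. The windows are chr9:119157044-119157343 (minus strand), chr9:119341044-119341343 (plus), chr7:119760673-119760972 (plus), chr16:21787785-21788084 (minus) and chr3:153944594-153944893 (minus).
Acaa1b: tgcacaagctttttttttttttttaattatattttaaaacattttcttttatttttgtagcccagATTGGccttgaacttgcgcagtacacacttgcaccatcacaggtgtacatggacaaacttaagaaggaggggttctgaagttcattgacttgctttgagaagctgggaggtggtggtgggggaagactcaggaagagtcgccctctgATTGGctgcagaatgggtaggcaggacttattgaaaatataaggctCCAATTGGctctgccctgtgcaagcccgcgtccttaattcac
Acaa1a: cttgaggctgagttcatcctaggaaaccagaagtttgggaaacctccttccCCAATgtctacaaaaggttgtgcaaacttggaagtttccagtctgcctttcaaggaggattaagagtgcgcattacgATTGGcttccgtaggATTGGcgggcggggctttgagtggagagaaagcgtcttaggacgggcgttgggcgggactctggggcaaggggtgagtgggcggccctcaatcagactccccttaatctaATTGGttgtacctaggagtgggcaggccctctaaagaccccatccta
Acsm3: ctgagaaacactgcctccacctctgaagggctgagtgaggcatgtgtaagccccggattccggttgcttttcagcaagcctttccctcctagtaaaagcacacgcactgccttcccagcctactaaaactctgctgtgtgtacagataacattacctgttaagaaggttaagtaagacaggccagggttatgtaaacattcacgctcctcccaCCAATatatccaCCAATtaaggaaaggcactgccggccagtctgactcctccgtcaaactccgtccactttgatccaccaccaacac
Ehhadh: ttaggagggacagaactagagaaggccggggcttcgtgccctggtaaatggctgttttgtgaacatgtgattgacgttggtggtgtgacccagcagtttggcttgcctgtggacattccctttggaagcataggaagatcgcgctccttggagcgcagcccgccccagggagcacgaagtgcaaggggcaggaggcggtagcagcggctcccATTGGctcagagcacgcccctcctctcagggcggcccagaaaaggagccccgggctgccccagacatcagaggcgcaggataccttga
Acadm: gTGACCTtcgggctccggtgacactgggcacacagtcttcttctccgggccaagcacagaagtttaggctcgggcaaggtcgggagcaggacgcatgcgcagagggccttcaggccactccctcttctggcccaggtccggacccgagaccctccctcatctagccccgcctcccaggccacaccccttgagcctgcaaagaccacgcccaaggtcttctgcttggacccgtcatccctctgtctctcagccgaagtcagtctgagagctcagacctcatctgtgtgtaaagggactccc

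RefSeq windows were found for 36 of the 40 members, 40 windows in all since a gene can have more than 1 start. CCAAT was in 16 of the 40 windows (40%), against 12289 of 32851 windows of all genes (37.4%). Acaa1b and Acaa1a each held 4 copies, counting both strands, and in Acaa1b a pair of them overlaps on opposite strands. AGGTCA was in 6 windows (15%, against 16.3% of all), those of Acadm, Acadvl, Acot12, Acsm1, Cpt1a and Slc27a2. The full direct repeat with 1 spacer base, AGGTCANAGGTCA, was in none of the members' windows and in 0.0396% of all. The relaxed repeat AGGNCANAGGNCA was in none of the members' windows and in 0.381% of all. These are matches of letters in short windows and say nothing of binding elsewhere.

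Along the proximal tubule, several peroxisomal genes were higher in S3, the last segment, and the mitochondrial genes split. The ratio of S3 to S1 was taken within each library for the 39 members with at least 100 UMIs in the proximal segments. A total of 11 members were higher in S3 in all 6 libraries and 7 were lower in all 6. Of the 12 peroxisomal members 5 were higher and 1 lower in all 6, and of 20 mitochondrial members 3 and 3. Of all genes at that depth, 12.1% were higher in 6 of 6 libraries and 13.3% lower. The median ratio was 1.33 over the 12 peroxisomal members, 0.932 over 20 mitochondrial members and 1.53 over the 7 others, against 0.995 over all genes. The segments are separate nuclei of the same libraries, and no test of these ratios was made.

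**Figure D1:**
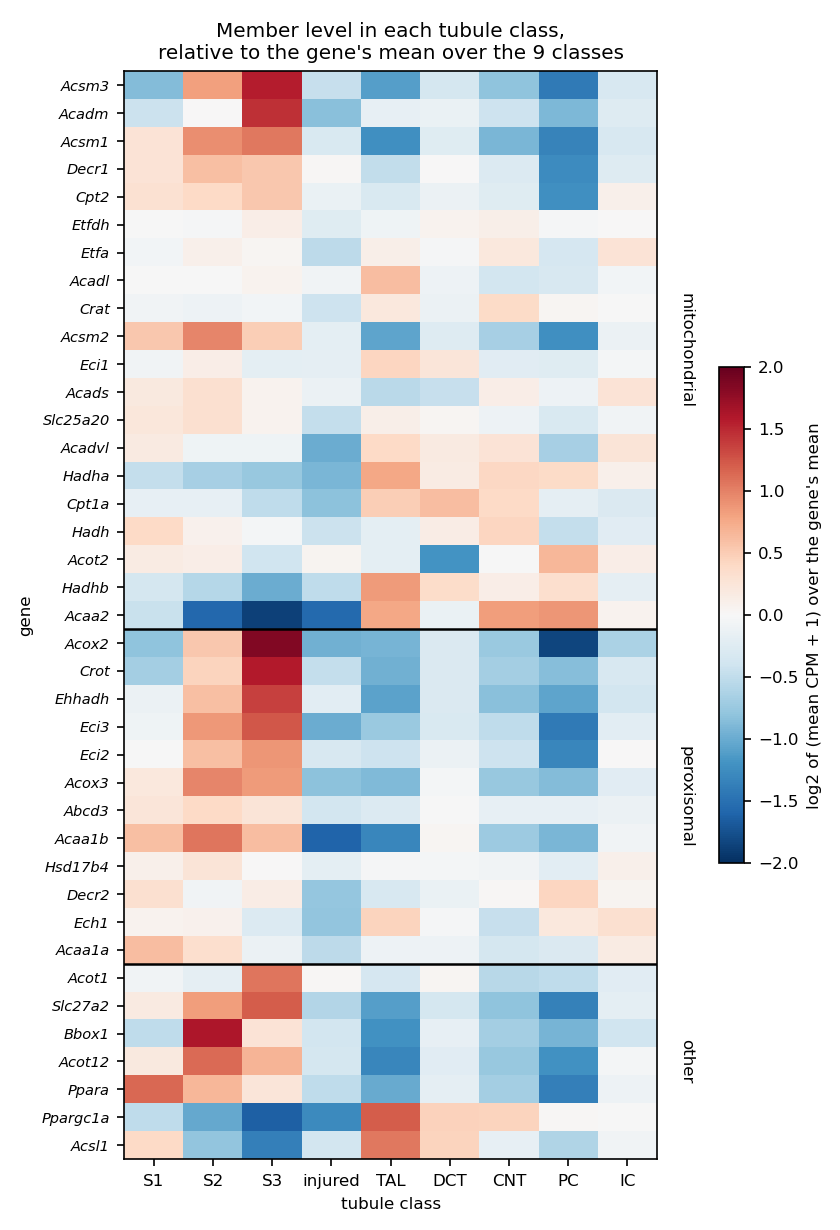
Level of each member across the 9 tubule classes, with genes down the page grouped as mitochondrial, peroxisomal and other. Colour is the log2 ratio of CPM + 1 to the gene's own mean over the 9 classes. The injured column uses the mean of the 3 knockout libraries and the other columns the mean of all 6. Crot, Acox2 and Acsm3 are reddest in S3, and Ppargc1a, Hadha and Hadhb in TAL.

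Acox2 showed the widest range. It encodes the peroxisomal branched-chain acyl-CoA oxidase, which also shortens bile acid precursors. Acox2 averaged 24.7 ± 11.8 CPM in S1, 63.7 ± 22.5 in S2 and 160 ± 58.9 in S3 (SD, n = 6 libraries). Its S3 values were 161.01, 113 and 102 CPM in the knockout libraries and 256, 201 and 130 CPM in the control libraries. In S1 it had 33.0, 16.2 and 7.42 CPM in the knockout libraries and 32.3, 38.4 and 20.8 CPM in the control libraries. No S1 value reached any S3 value. The S3 to S1 ratio had a median of 6.62 and ran from 4.88 to 13.7.

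Crot, the carnitine octanoyltransferase that readies shortened acyl groups for export from the peroxisome, followed the same course. Its S3 values were 565, 605 and 753 CPM in the knockout libraries and 515, 280 and 418 CPM in the control libraries. In S1 the values were 122, 88.3 and 108 CPM in the knockout libraries and 135, 121 and 75.4 CPM in the control libraries. The segments did not overlap, and the median ratio was 5.09. Eci3 and Eci2 encode enoyl-CoA isomerases that move double bonds out of the way. Eci3 averaged 114, 221 and 288 CPM in S1, S2 and S3, with a median S3 to S1 ratio of 2.85, and for Eci2 that ratio was 1.94. Ehhadh, the peroxisomal bifunctional enzyme for straight-chain fatty acids, was also higher in S3 in 6 of 6 libraries, but its ratio ran from 1.17 to 5.11.

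Not every peroxisomal gene leaned that way. Acaa1a, a 3-ketoacyl-CoA thiolase that makes the last cut of the peroxisomal cycle, was lower in S3 than S1 in 6 of 6 libraries, with a median ratio of 0.608. Its neighbour Acaa1b averaged 164, 228 and 165 CPM in S1, S2 and S3. Abcd3, the transporter that brings fatty acids into the peroxisome, was nearly flat, with a highest to lowest ratio of 1.11 between segment means. Hsd17b4, Ech1 and Decr2 had median S3 to S1 ratios of 0.867, 0.860 and 0.698, each lower in S3 in 4 of 6 libraries.

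Among mitochondrial genes, 3 were higher in S3 in all 6 libraries. These were Acsm3 and Acsm1, medium-chain acyl-CoA synthetases, and Acadm, the medium-chain acyl-CoA dehydrogenase. Acadm averaged 127 ± 54.3, 172 ± 27.7 and 473 ± 208 CPM in S1, S2 and S3. S3 nuclei had 348, 704 and 769 CPM in the knockout libraries and 406, 315 and 298 CPM in the control libraries. In S1 it had 117, 72.1 and 104 CPM in the knockout libraries and 209, 178 and 83.9 CPM in the control libraries. All S3 values lay above all S1 values, and the ratio ran from 1.77 to 9.76. For Acsm3 the ratio had a median of 5.16. Acsm2, another synthetase of this family, was highest in S2 in 6 of 6 libraries, with 2425, 3274 and 2336 CPM in S1, S2 and S3.

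The subunits of the mitochondrial trifunctional protein, Hadha and Hadhb, and the mitochondrial thiolase Acaa2 were lower in S3 than S1 in 6 of 6 libraries. Acaa2 was sparse, at 11.6 CPM in S1 and 3.73 CPM in S3. Cpt1a, which makes acylcarnitine at the outer membrane for the carnitine shuttle, averaged 201, 200 and 157 CPM in S1, S2 and S3, and was lower in S3 than S2 in 6 of 6 libraries. Cpt2, which turns it back into acyl-CoA inside, averaged 43.6, 46.3 and 51.6 CPM. The smallest differences between segment means were those of Crat (ratio of highest to lowest 1.03), Acadl (1.06), Etfa (1.11) and Abcd3 (1.11), encoding carnitine acetyltransferase, the long-chain dehydrogenase, an electron transfer flavoprotein subunit and the peroxisomal transporter. Etfb, the partner of Etfa, had 4 UMIs in all proximal nuclei and is not described further. Of its transcript sequence, 42.3% of 60-base stretches also occur in other annotated genes.

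Activation and control ran both ways along the tubule. Slc27a2, which takes up and activates long-chain fatty acids, was higher in S3 than S1 in 6 of 6 libraries, with means of 1356, 2156 and 2793 CPM in S1, S2 and S3. The long-chain synthetase Acsl1 showed the opposite order, with 195, 85.0 and 56.3 CPM. Acsl1 in S3 had 66.4, 44.1 and 33.9 CPM in the knockout libraries and 49.8, 110 and 33.4 CPM in the control libraries. In S1 it had 245, 185 and 150 CPM in the knockout libraries and 187, 263 and 139 CPM in the control libraries. The groups overlapped within each segment, but no S3 value reached an S1 value, and the median ratio was 0.253.

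The regulators followed Acsl1. Ppara averaged 1138, 820 and 607 CPM in S1, S2 and S3 and was lower in S3 in 6 of 6 libraries, with ratios of 0.459 to 0.600. Ppargc1a averaged 344, 241 and 157 CPM, also lower in S3 in 6 of 6. Bbox1, which makes carnitine from butyrobetaine, peaked in S2 in 6 of 6 libraries, at 96.5 CPM against 21.4 in S1 and 37.4 in S3. It also varied between libraries, with S2 levels of 268, 30.1 and 25.4 CPM in the knockout libraries and 105, 87.9 and 62.7 CPM in the control libraries. Knockout 1 was the highest and the other 2 knockout libraries the lowest. Acot12, a cytosolic acetyl-CoA thioesterase, peaked in S2 as well (257, 494 and 361 CPM in S1, S2 and S3).

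**Figure D2:**
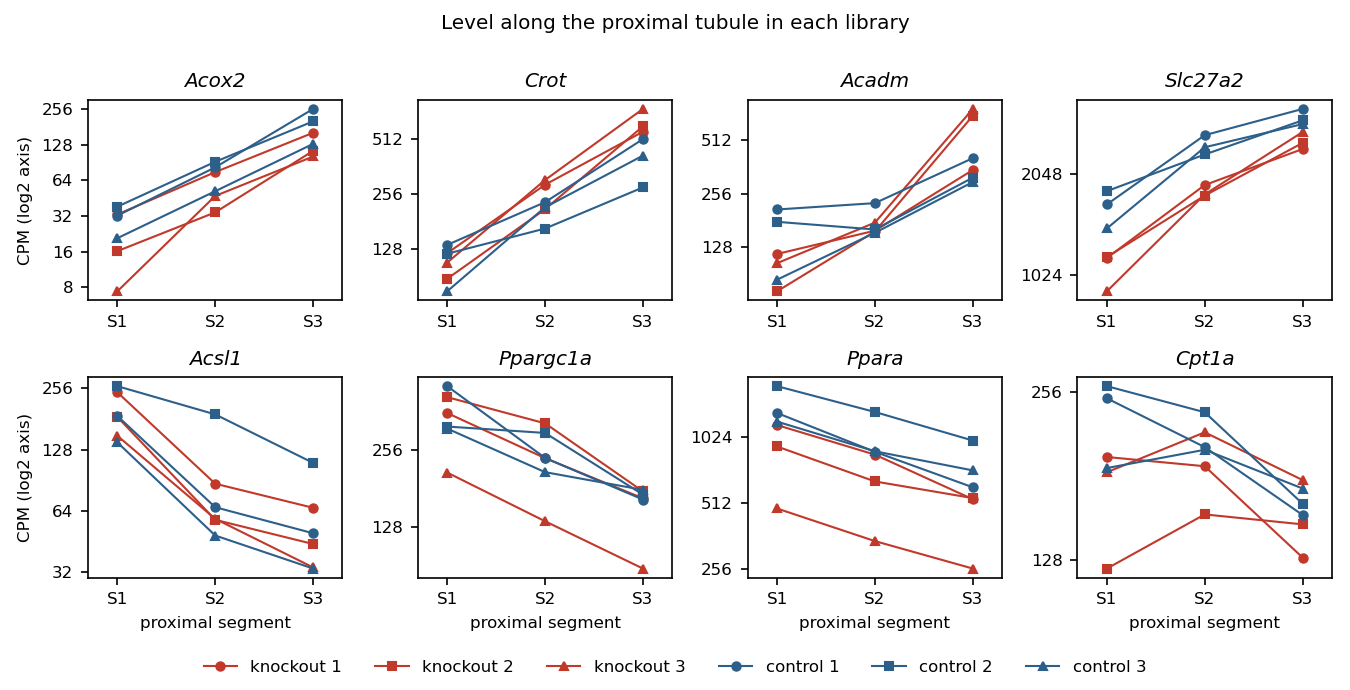
CPM of 8 members in S1, S2 and S3 (log2 axis). Each line joins the 3 segments of 1 library, red for knockout and blue for control. Crot, Acox2 and Acadm climb toward S3 in both groups, while Acsl1, Ppara and Ppargc1a decline.

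In the injured tubule class most members stood below the level of S1 to S3 together. Over the 3 knockout libraries, 27 of 39 members were lower in all 3 and 1 was higher in all 3, beside 26.1% of all genes lower and 28.1% higher. Lower in 3 of 3 were 13 of 20 mitochondrial members, 10 of 12 peroxisomal and 4 of 7 others. The median ratio of injured to proximal was 0.754 for mitochondrial, 0.574 for peroxisomal and 0.623 for other members, against 1.01 for all genes. The control libraries had 69, 9 and 15 injured nuclei, too few for a test of knockout against control in this class.

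The members with the highest S3 to S1 ratios were among the lowest here. Acsm3 had 117, 105 and 203 CPM in the injured class of the 3 knockout libraries, against 304, 533 and 877 CPM in their S1 to S3 nuclei, ratios of 0.385, 0.196 and 0.231. Crot had 144, 97.1 and 132 CPM in the injured class, against 319, 330 and 444 CPM in S1 to S3. Every injured value was below every proximal one for both genes. Slc27a2 had 809, 762 and 824 CPM in the injured class and 1835, 1905 and 1979 CPM in S1 to S3, ratios between 0.400 and 0.441. Acox2, Eci3, Acadm and Acsm1 also stayed below 0.6 in each of the 3 libraries.

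The summed proximal markers were lower in these nuclei, so the members were set beside them. This sum pools the markers of all proximal segments. Taken apart, the segments differed. The 8 S1 markers had 3155, 3924 and 3782 CPM in the injured class of the knockout libraries. In S1 to S3 of these libraries they had 4007, 3810 and 3174 CPM. The 8 S3 markers had 2193.3, 2340.5 and 2228.5 CPM, against 4709.3, 6587.9 and 6871.4 CPM in S1 to S3. The 5 S2 markers had 735, 563 and 588 CPM, against 1636, 1465 and 1330 CPM. Members high in a single segment were set beside the pooled sum only, and the part of segment make-up was not tested. The summed level of 28 proximal markers in the injured class was 0.598, 0.644 and 0.636 of that in S1 to S3. A total of 11 members lay below this marker ratio in all 3 libraries (4 mitochondrial, 4 peroxisomal and 3 others). A total of 17 lay above it in all 3, of which 12 were mitochondrial and 3 peroxisomal. Cpt1a (0.698, 0.839 and 0.709) and Hadhb (0.977, 1.44 and 1.22) were among those above. Ppara had ratios of 0.485, 0.684 and 0.623. Acsl1 was the 1 member higher than in S1 to S3 in every knockout library, at ratios of 1.05, 1.13 and 1.61. The part that mixed or free RNA plays in these ratios was not tested.

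**Figure D3:**
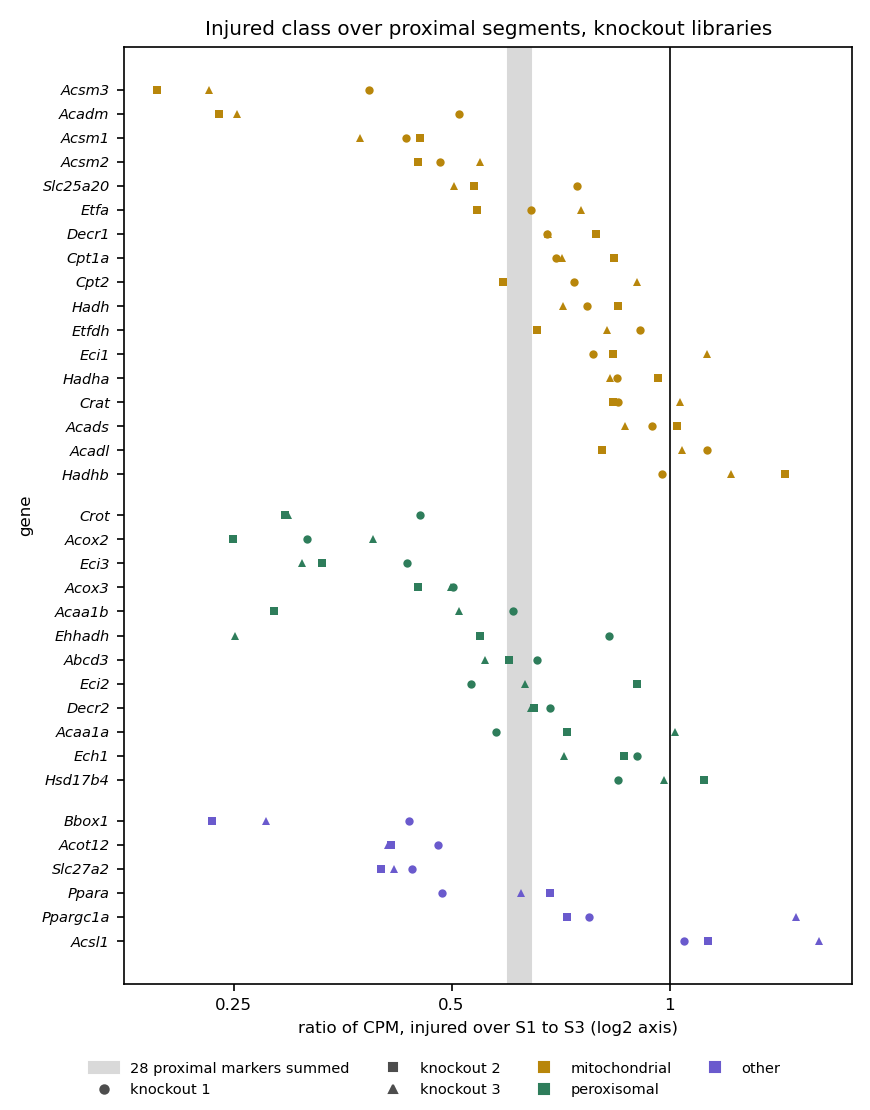
Ratio of CPM in the injured class to S1 to S3 together for each member in the 3 knockout libraries (log2 axis, 1 symbol per library), with the range of the 28 proximal markers as a grey band. Acsm3, Crot, Acox2, Bbox1 and Slc27a2 lie left of the band, most mitochondrial members right of it, and Acsl1 right of 1. Members with few UMIs in the injured class are not drawn.

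In TAL, the mitochondrial members split around their proximal level and most peroxisomal members were below it. TAL, a salt-transporting segment rich in mitochondria, is the largest distal class. Relative to S1 to S3 in the same library, 9 of 39 members were higher in TAL in 6 of 6 libraries (18.9% of all genes) and 20 lower in 6 of 6 (19.8% of all genes). The higher ones were Acaa2, Acadl, Cpt1a, Eci1, Hadha and Hadhb of the mitochondrial list, Ech1 of the peroxisomal list, and Acsl1 and Ppargc1a. The median TAL to proximal ratio was 0.933 for mitochondrial, 0.439 for peroxisomal and 0.307 for other members, against 1.03 for all genes. In the other 4 distal classes the mitochondrial median ran from 0.721 in PC to 1.01 in IC and the peroxisomal median from 0.430 in PC to 0.648 in DCT.

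Ppargc1a had 965, 1383 and 1358 CPM in TAL of the knockout libraries and 1048, 1039 and 1020 CPM in TAL of the control libraries. The ratio to S1 to S3 was 3.82 to 10.3, with every library well above 1. Hadha had 110, 133 and 139 CPM in TAL of the knockout libraries and 128, 131 and 132 CPM in TAL of the control libraries, a median ratio of 2.74. Cpt1a had 251, 355 and 371 CPM in the knockout libraries and 322, 305 and 303 CPM in the control libraries, a median ratio of 1.61. Acsl1 had a median ratio of 2.93. Of these, Hadha and Ppargc1a were above S1 to S3 in 6 of 6 libraries in all 5 distal classes.

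Distal nuclei also carried RNA of proximal genes, and the level of the proximal markers was taken as a floor for these values. The 28 proximal markers had a median of 0.284 of their S1 to S3 level in TAL, 0.473 in DCT, 0.371 in CNT, 0.276 in PC and 0.522 in IC. In podocytes the figure was 0.405 and in endothelial nuclei 0.571. In TAL 22 members were above the marker ratio in 6 of 6 libraries and none below it in 6 of 6. Slc27a2 (median ratio 0.257 in TAL) and Acaa1b (0.204) lay at or below the marker level in TAL. Eci3, Acsm3 and Slc27a2 in the other distal classes, and Acaa1b in CNT, PC and IC, had median ratios near those of the markers. Whether these levels come from the distal nuclei themselves was not tested. Acaa1b in DCT had a median ratio of 0.539 and was above the marker ratio in 5 of 6 libraries. Hadha, Acsl1, Cpt1a and Ppargc1a were above the marker ratio in 6 of 6 libraries in each distal class.

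Knockout was then compared with control within each class, by edgeR's quasi-likelihood test on summed UMIs with Benjamini-Hochberg adjustment over all genes tested in the class. No member reached an adjusted p of 0.05 in any of the 8 classes tested. Of all genes, 0% were called in S1 (of 8940), 0.0198% in S2 (of 10122) and 0.0775% in S3 (of 9034), so few calls were made anywhere. At an unadjusted p of at most 0.05 there were 9 of 37 tested members in S1, 10 of 37 in S2 and 7 of 37 in S3, beside 560 of 8940, 711 of 10122 and 639 of 9034 of all genes. DESeq2, run on the same sums, called 1 member in S1 (Acaa1b) and 3 each in S2 and S3 (Acaa1b, Acox3 and Acsm3), beside 0.436%, 0.642% and 0.753% of all genes in S1, S2 and S3. The labels do not say that the libraries came from separate animals, and p-values measure only the spread between these libraries.

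Most members that passed the count filter had estimates below 0. In S1 these were 30 of 37, in S2 27 of 37 and in S3 26 of 37, while 50.8%, 50.5% and 49.7% of all tested genes were below 0. The peroxisomal members had the lowest medians, at -0.63 in S1, -0.69 in S2 and -0.53 in S3 on the log2 scale. Mitochondrial members had medians of -0.23, -0.12 and -0.15. Every knockout library was below every control library for 6 members in S1, 7 in S2 and 7 in S3 (4.57%, 5.72% and 6.67% of all genes), and above for 0, 1 and 2 (7.63%, 6.49% and 5.9% of all genes). The summed injury markers also stood apart in these segments. They were at 436 to 700 CPM in S1, 422 to 746 in S2 and 335 to 582 in S3 of the knockout libraries, against 111 to 425, 246 to 387 and 151.7 to 287 CPM in the control libraries. This was not particular to S1 to S3. The injury markers were also apart in TAL, DCT, CNT and IC and in podocyte and endothelial nuclei, and overlapped in PC. In endothelial nuclei they had 327 to 472 CPM in the knockout libraries, against 134 to 193 CPM in the control libraries. The 5 S2 markers were lower in S2 of the knockout libraries, at 1649 to 2168 CPM, than in the control libraries, at 2208 to 3206 CPM. Nor was this particular to S2. In S3 they had 862 to 1176 CPM in the knockout libraries, against 1711 to 2466 CPM in the control libraries. They were also apart and lower in TAL, PC and IC and in podocyte and endothelial nuclei, and overlapped in S1, DCT and CNT. The part of the injury and S2 markers in the members' values was not tested.

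Acaa1b stood furthest from 0, in all 3 segments. In S3 it had 59.2, 43.1 and 73.4 CPM in the knockout libraries, against 137, 369 and 307 CPM in the control libraries. Each knockout value was below each control value, and the same held in S1 and S2. In S1 it had 82.6, 54.5 and 49.0 CPM in the knockout libraries, against 142, 430 and 228 CPM in the control libraries. In S2 the values were 94.8, 61.2 and 99.8 CPM in the knockout libraries, against 230, 599 and 283 CPM in the control libraries. Control 1 was the lowest control library each time. Before segments were named, a proximal cluster drew 1277 of its 1714 nuclei from control 3 and 249 from control 2. Acaa1b was among its leading genes, and its part in the control values was not tested. The log2 fold changes were -2.05 ± 0.39 in S1, -2.07 ± 0.35 in S2 and -2.17 ± 0.36 in S3 (SE), with edgeR adjusted p of 0.382, 0.204 and 0.124. The call depended on the test. DESeq2 gave adjusted p of 5.09e-05, 1.09e-06 and 6.20e-07 for the 3 segments. Without control 1 the S3 value passed in edgeR at an adjusted p of 0.0189, and over all alternatives the S3 adjusted p ran from 6.20e-07 to 0.747.

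Acaa1b lies on chromosome 9 at 119148023 to 119157093 (minus strand, GRCm38) and Acaa1a at 119339676 to 119350299 (plus strand). Of the 60-base stretches of the Acaa1b transcript, 27.3% also occur in Acaa1a, so reads from these stretches are not assigned to either gene with certainty. Acaa1a had smaller estimates, of -0.61 in S1 and -0.68 in S3, where its groups overlapped. In S2 it had 14.5, 12.9 and 13.1 CPM in the knockout libraries, against 31.7, 43.0 and 15.4 CPM in the control libraries. The groups did not overlap, although control 3 was close to the knockout values, and the log2 fold change was -1.08 with an edgeR adjusted p of 0.663.

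Acox3, the other branched-chain acyl-CoA oxidase of the peroxisome, showed a smaller and even difference. In S2 it had 276, 206 and 155 CPM in the knockout libraries, against 399, 389 and 443 CPM in the control libraries. In S3 it had 230, 186 and 152.37 CPM in the knockout libraries, against 340, 292 and 505 CPM in the control libraries. The groups were apart in S1, S2 and S3. The log2 fold changes were -0.84 in S1, -0.95 in S2 and -0.997 in S3, and the lowest edgeR adjusted p of the 3 was 0.387. Eci2 was likewise below every control library in each segment, by -0.73 in S1, -0.66 in S2 and -0.51 in S3 on the log2 scale. Its S1 levels were 55.5, 48.6 and 54.9 CPM in the knockout libraries, against 66.5, 121 and 78.0 CPM in the control libraries.

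Acsm3 went the other way. S3 levels were 532, 907 and 1275 CPM in the knockout libraries, against 382, 136 and 232 CPM in the control libraries. In S2 it had 293, 433 and 837 CPM in the knockout libraries, against 227, 87.9 and 176 CPM in the control libraries. The groups were apart in both segments, with the libraries numbered 1 nearest to each other. In S1 they overlapped. The log2 fold changes were 0.90 in S1, 1.62 in S2 and 1.82 in S3, with edgeR adjusted p of 0.517 in S2 and 0.347 in S3. Crot was the second member above all controls in S3, at 565, 605 and 753 CPM in the knockout libraries against 515, 280 and 418 CPM in the control libraries.

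Ehhadh was set by 1 library. In S3 it had 87.3, 130 and 1244 CPM in the knockout libraries, against 147, 179 and 108 CPM in the control libraries. Knockout 3 was far above all others and the other 2 knockout libraries lay within or below the control range. The log2 fold changes of 0.28, 1.19 and 1.75 in S1, S2 and S3 became -0.59, -0.53 and -0.39 without knockout 3. Before segments were named, a proximal cluster drew 843 of its 872 nuclei from knockout 3. Ehhadh and Lpl were among its leading genes, and its part in these values was not tested. Knockout 3 also had the lowest Ppara. In S1 Ppara had 1159, 926 and 484 CPM in the knockout libraries, against 1315, 1741 and 1201 CPM in the control libraries. Each knockout value was below each control value in S1, S2 and S3, with log2 fold changes of -0.75, -0.73 and -0.78.

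Slc27a2 was lower in every segment, most in S1. There it had 1154, 1161 and 919 CPM in the knockout libraries, against 1665, 1824 and 1413 CPM in the control libraries, a log2 fold change of -0.63. The groups were apart in S1, S2 and S3, and the log2 fold changes in S2 and S3 were -0.46 and -0.23. For the carnitine shuttle, the log2 fold change of Cpt1a was -0.50 in S1, -0.19 in S2 and -0.10 in S3. Cpt2 in S3 had 38.9, 50.1 and 49.2 CPM in the knockout libraries, against 59.4, 55.2 and 57.0 CPM in the control libraries, with no overlap and a log2 fold change of -0.34. Acadvl, the very long-chain dehydrogenase, had estimates of -0.98, -0.80 and -0.41 in S1, S2 and S3.

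**Figure D4:**
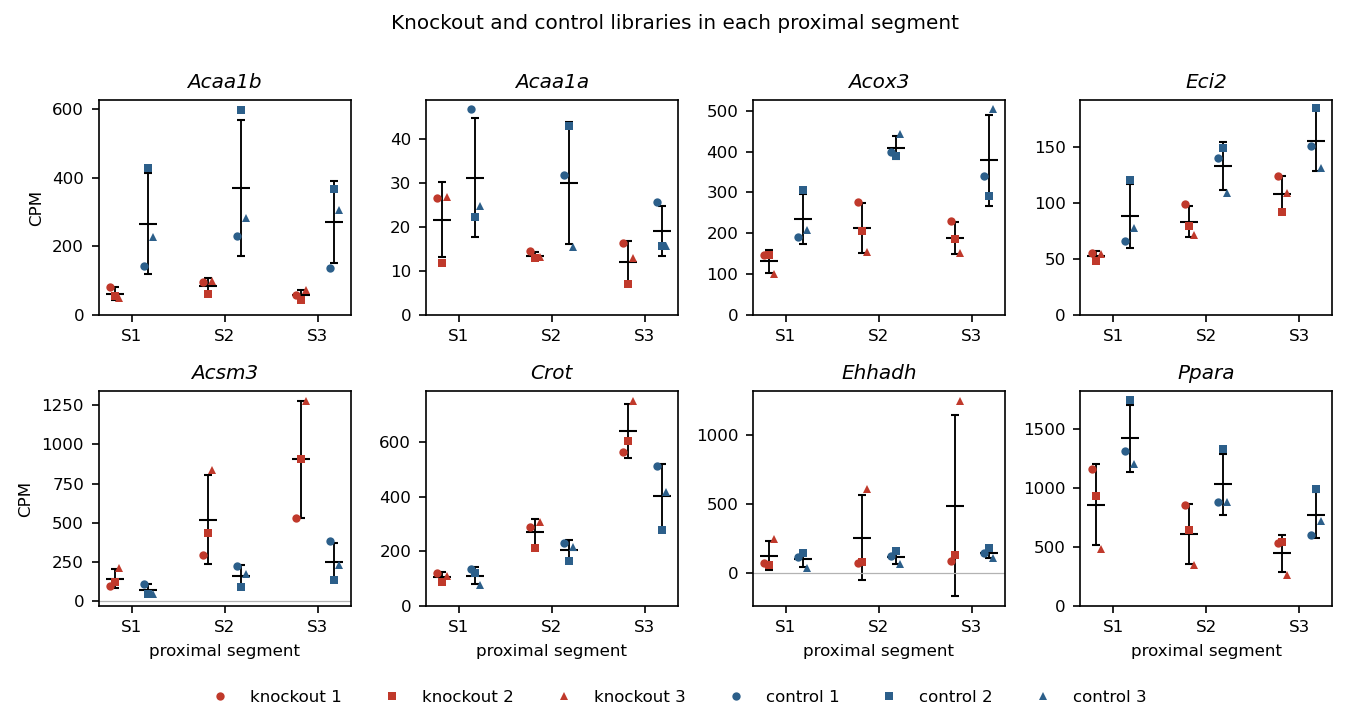
CPM of 8 members in S1, S2 and S3, 1 point per library, knockout (red) left of control (blue) in each segment, with the mean and SD of each group in black. Acaa1b and Acox3 are apart and lower in knockout in every segment, Acsm3 is apart and higher in S2 and S3, and Ehhadh shows 1 high knockout library.

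Whether the knockout effect differed between segments was tested directly, with the library as a block. No member passed for S2 minus S1 (0% of 10326 genes called), S3 minus S1 (0% of 10001), S3 minus S2 (0.0706% of 9915) or all proximal minus all distal classes (0% of 13138). Acadm came closest. Its log2 fold change was 0.85 ± 0.19 (SE) greater in S3 than in S2, with an edgeR adjusted p of 0.140, and 1.30 ± 0.35 greater in S3 than in S1, with an edgeR adjusted p of 0.775. Acadm levels in S3 were 348, 704 and 769 CPM in the knockout libraries, against 406, 315 and 298 CPM in the control libraries. Knockout 1 was inside the control range, and without it the edgeR adjusted p was 9.61e-06 for S3 minus S2 and 0.0222 for S3 minus S1. With the replicate number as a block, S3 minus S1 gave an adjusted p of 0.0326, and 0.09% of all genes were called. Over all alternatives the adjusted p ran from 9.61e-06 to 0.619 for S3 minus S2 and from 0.0222 to 1 for S3 minus S1.

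In the distal classes no member passed edgeR's test with all 6 libraries and no replicate block. Of all genes, 0.0136% were called in TAL, 0% in DCT, CNT and PC and 0.0145% in IC. Estimates below 0 prevailed here too. In TAL 28 of 35 tested members were below 0, with all 11 peroxisomal ones among them, beside 51.6% of all genes. The counts were 21 of 32 in DCT, 18 of 27 in CNT, 13 of 16 in PC and 23 of 33 in IC. The peroxisomal median was -0.68 in TAL, -0.29 in DCT, -0.43 in CNT, -0.45 in PC and -0.48 in IC. In DCT Acaa1b had 45.4, 25.9 and 43.9 CPM in the knockout libraries, against 91.7, 329 and 125 CPM in the control libraries. In IC it had 32.5, 25.7 and 18.7 CPM in the knockout libraries, against 97.3, 293 and 146 CPM in the control libraries. The groups were apart in both, as in TAL and CNT. The log2 fold changes were -2.004 in TAL, -2.13 in DCT, -1.89 in CNT and -2.72 in IC, of about the size seen in S1 to S3. The lowest edgeR adjusted p of these was 0.177, in IC, and without control 1 it was 0.00181. DESeq2 called 1 member in TAL (Eci3, beside 0.0545% of all genes), 2 in DCT (Acaa1b and Acsm3, beside 0.33%) and 1 in IC (Acaa1b, beside 0.246%).

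With the replicate number as a block, Acaa1b fell in TAL (edgeR adjusted p = 0.0339), DCT (0.00853), CNT (0.0270) and IC (0.0135). Under the same block Slc27a2 fell in TAL (0.0171) and PC (0.0363), Eci3 fell in TAL (0.00403), and Acsm3 rose in DCT (0.0419). Eci3 in TAL had 49.1, 13.0 and 13.7 CPM in the knockout libraries, against 158, 119 and 76.6 CPM in the control libraries, with no overlap and a log2 fold change of -2.11. Of all genes, the block called 0.763% in TAL, 1.11% in DCT, 0.795% in CNT, 0.533% in PC and 0.217% in IC. Without knockout 1 Eci3 in TAL passed without the block, at an edgeR adjusted p of 0.0381. Over all alternatives the adjusted p of these 8 results ran from 8.77e-15 (Acaa1b in IC with no low-count filter) to 0.9999. Most of these 8 results were for members whose median ratio to S1 to S3 was near the marker ratio. Acaa1b in DCT was above the marker ratio in 5 of 6 libraries. In TAL the summed proximal markers were at 0.320, 0.178 and 0.151 of their S1 to S3 level in the knockout libraries, against 0.379, 0.321 and 0.249 in the control libraries. These overlapped, since knockout 1 was above control 3. In DCT the markers were at 0.503, 0.562 and 0.443 in the knockout libraries, against 0.400, 0.659 and 0.332 in the control libraries, with the knockout values inside the control range. In CNT they were at 0.415, 0.352 and 0.251 in the knockout libraries, against 0.390, 0.428 and 0.263 in the control libraries. PC had 0.317, 0.164 and 0.204 in the knockout libraries, against 0.362, 0.345 and 0.236 in the control libraries. IC had 0.446, 0.575 and 0.411 in the knockout libraries, against 0.469, 0.673 and 0.580 in the control libraries. The groups overlapped in each of these classes for this ratio. It is taken to the S1 to S3 level of the same library, so it cannot show a group difference that S1 to S3 share. It also pools the markers of all proximal segments. In CPM, the 5 S2 markers were apart and lower in knockout in TAL, PC and IC. They had 195 to 523 CPM in TAL of the knockout libraries, against 573 to 882 CPM in the control libraries. The ranges were 217 to 543 against 599 to 795 CPM in PC and 624 to 926 against 1071 to 1640 CPM in IC. The S2 markers overlapped in DCT and CNT, and the S1 and the S3 markers in all 5 classes. The part of mixed or free proximal RNA in the distal differences was not tested.

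**Figure D5:**
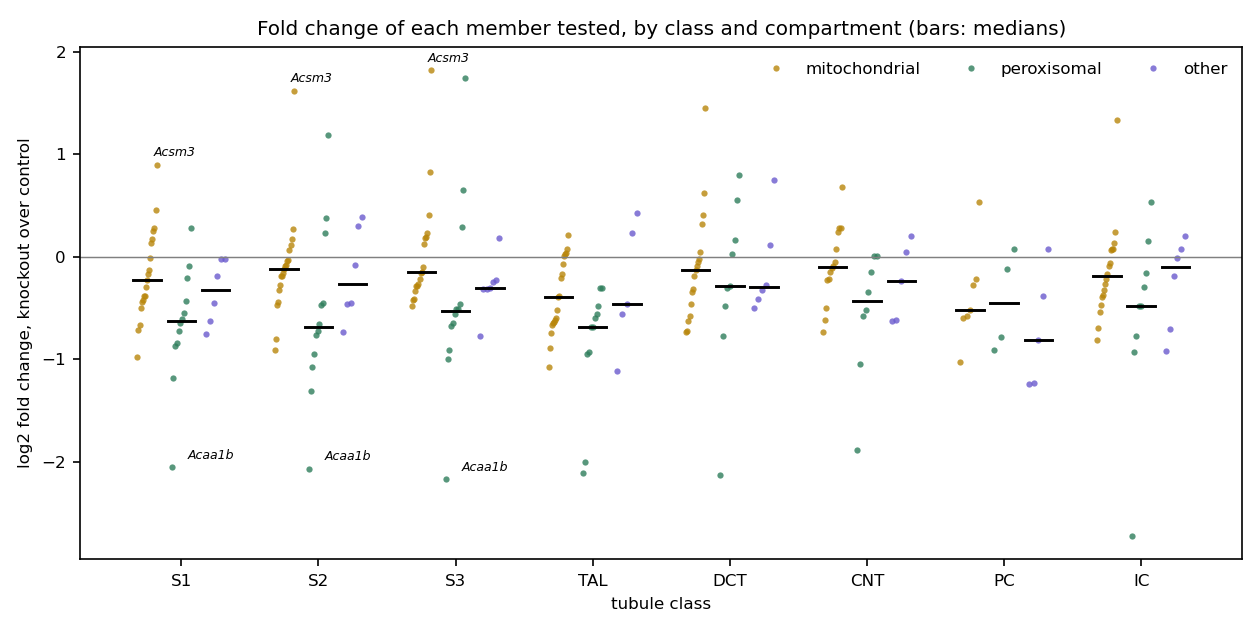
Log2 fold change, knockout over control, of each member tested in the 8 tubule classes, with the mitochondrial, peroxisomal and other members apart. Points are edgeR estimates and bars the medians. Acaa1b lies below -2 in S1, S2 and S3, Acsm3 reaches 1.82 in S3, and no member passed the adjusted threshold.

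Neighbouring pathways were read from lists chosen with earlier results of these data known, and none of their genes passed the test in S1, S2 or S3 in either direction. Of other beta-oxidation and carnitine genes, 11 of 16 tested were below 0 in S1, 13 of 17 in S2 and 11 of 17 in S3, with medians of -0.25, -0.21 and -0.15. Phyh, which starts the alpha-oxidation of phytanic acid in the peroxisome, had 132, 85.2 and 58.9 CPM in S3 of the knockout libraries, against 234, 155.7 and 253 CPM in the control libraries. Its groups were apart (log2 fold change -1.21, edgeR adjusted p = 0.402). Acad11, an acyl-CoA dehydrogenase, had an estimate of -0.63 in S1.

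PPAR-alpha targets had medians of -0.59, -0.53 and -0.41 in S1, S2 and S3, on 7, 8 and 6 tested genes, of which 5, 7 and 5 were below 0. They did not move as one. Vnn1 had an estimate of -1.01 in S3 and Cyp4a10 of -1.11 in S1, whereas Cyp4a12a in S3 had 105, 152.4 and 429 CPM in the knockout libraries, against 82.2, 72.9 and 35.4 CPM in the control libraries, a log2 fold change of 1.81 (edgeR adjusted p = 0.484). Cyp4a genes encode fatty acid omega-hydroxylases, and Cyp4a12a is known as male-biased in mice. All 6 libraries had RNA of Y-linked genes in S1 to S3, with 84.8 to 111 CPM of Ddx3y and 276 to 400 CPM of Uty. Xist had 0.413 to 1.59 CPM there. The regulators showed 9 of 17, 10 of 18 and 7 of 17 tested genes below 0 in S1, S2 and S3. Nr1h4, the bile acid receptor FXR, had 700, 1439 and 1477 CPM in S2 of the knockout libraries, against 687, 724 and 728 CPM in the control libraries. Knockout 1 was inside the control range, and the log2 fold change was 0.76.

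Peroxisome biogenesis genes had medians of -0.11, -0.02 and -0.07, with 11 of 15, 9 of 16 and 9 of 15 tested genes below 0 in S1, S2 and S3. The peroxisomal catalase Cat had 169, 157 and 159 CPM in S3 of the knockout libraries, against 315, 211 and 218 CPM in the control libraries, apart, with a log2 fold change of -0.63. Citrate cycle genes had medians of -0.21, -0.25 and -0.28, and 14, 15 and 15 of 20 below 0. Pcx, pyruvate carboxylase, had an estimate of -0.62 in S3. Of 10 tested genes of lipid uptake, storage and synthesis, 6, 5 and 5 were below 0, with medians of -0.003, 0.01 and -0.02 and estimates from -0.84 to 2.11 in S3. By smallest p these were Mgll (monoglyceride lipase), at -0.88 in S2, and Dgat2, which makes triglyceride, at -0.82 in S3. Picked after their values were seen, Srebf1, a regulator of lipid synthesis, and Cd36, a fatty acid uptake receptor, were above every control library in S3, with estimates of 0.74 and 0.66. Lpl, lipoprotein lipase, had the highest estimate in S3, with 37.6, 43.1 and 722 CPM in the knockout libraries, against 84.6, 17.7 and 65.9 CPM in the control libraries. Knockout 3 alone stood above the control range.

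Glycolysis genes had medians of -0.47, -0.52 and -0.54, and 10 of 11, 12 of 15 and 11 of 12 tested genes below 0 in S1, S2 and S3. Pfkp stood against them in all 3 segments. It encodes the platelet-type phosphofructokinase. In S3 Pfkp had 40.2, 56.2 and 144 CPM in the knockout libraries, against 12.3, 15.8 and 13.8 CPM in the control libraries. Each knockout value was above the highest control value, in S1 and S2 too. The log2 fold changes were 2.32 in S1, 2.93 in S2 and 2.55 in S3, and the S3 value had an edgeR adjusted p of 0.266.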

How the data were processed

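The authors deposited, per library, raw UMI counts per gene and barcode in sparse matrices. Cell Ranger, Seurat and build mm10 are named in the submitters' processing notes, and the matrix headers carry software version 3.1.0. Whether introns were counted is not given in the sources used here. Nuclei needed 300 or more detected genes and a mitochondrial share of 5% or less. Likely doublets were scored against simulated ones and removed at 0.8% per 1000 barcodes (2.55% to 17.4% of barcodes per library). Nuclei were clustered after integration of the 6 libraries, without the 40 members or the comparison lists, and classes were named from marker genes. Each library held 8270961 to 62016616 UMIs, with a median of 1083 to 1975 per nucleus. Precision is limited by 3 libraries a group.

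UMIs were summed per library and class and tested with edgeR 4.0.16 (R 4.3.3; TMM scaling, filterByExpr by group, quasi-likelihood test, Benjamini-Hochberg over all genes of the class, threshold 0.05), for classes with at least 10 nuclei in each library. DESeq2 1.42.0 was an alternative, with other scalings, filters, class rules and libraries left out. The effect between classes was tested with library as a block. The edgeR steps were run on simulated counts with a fixed dispersion and no shared deviation of same-numbered libraries. Those runs check the code and not the error rate in these data. Members and lists were chosen with earlier results of these data known. Described are the 4 members with the smallest p in each of S1, S2 and S3, and Acaa1b and Acox3 with their paralogs. The members with the widest and narrowest range over S1 to S3 and genes of small p in each list are also described. In the distal classes only some of the 4 members with the smallest p are described.

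The replicate numbers were checked for pairing. Deviations from the group means correlated between same-numbered knockout and control libraries over proximal nuclei (r = 0.638, 0.222 and 0.287, across 12332 genes) and over distal nuclei (0.617, 0.314 and 0.371). All exceed 0.1, so a fit with the number as a block is given where it changed a call. The pairing comes from these correlations and not from the labels, and rests mainly on the libraries numbered 1. Knockout 2 and control 3 correlated at 0.406 (proximal) and 0.259 (distal), and knockout 3 and control 2 at 0.25 and 0.108, so in proximal nuclei the correlations do not tell the numbers 2 and 3 apart.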

Additional observations from a re-analysis of the deposited data

How the results depend on the processing

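Between-class counts (11 and 7 members higher and lower in S3, 27 lower in the injured class, 9 and 20 in TAL) stayed within 1.5 times under every nucleus filter, class rule and library set run. With classes by highest marker score the S3 to S1 ratios moved to 3.26 for Acsm3, 3.11 for Crot, 0.329 for Acsl1 and 0.577 for Ppargc1a.

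Counts of members past the threshold were 0 in each class and difference as reported, and moved as follows. DESeq2 called 1 in S1, 3 in S2, 3 in S3, 1 in TAL, 2 in DCT and 1 in IC. Without a low-count filter there were 2, 3, 4, 3, 2, 1 and 3 in S1, S2, S3, TAL, DCT, CNT and IC. The replicate block called 3 in TAL, 2 in DCT, 1 in CNT, 1 in PC and 1 in IC, and 1 for S3 minus S1, and changed no other call. Libraries 2 and 3 only called 2 in S1, 1 in S2, 2 in S3, 3 in TAL, and 1 each for S3 minus S1 and S3 minus S2. At most 1% mitochondrial UMIs called 1 in S3. This limit was not run in PC and IC, where control 1 kept under 10 nuclei. Leaving out 1 library gave 0 to 1 in S3, TAL, IC, S3 minus S1 and S3 minus S2. Members below 0 numbered 29 in CNT and 31 in PC without a filter and 24 in PC by highest score. The causes were not tested, beyond the genes added where no filter was used.

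Estimates that turned sign were small or rested on 1 library. Leaving out 1 library at a time gave -0.325 to 0.168 for Crot in S1, -0.589 to 0.615, -0.535 to 1.63 and -0.393 to 2.25 for Ehhadh in S1, S2 and S3, -0.268 to 0.0825 for Acadm in S2 and -0.211 to 0.0102 for Cpt1a in S3. Crot in S1 became 0.0086 without knockout 2, 0.168 without control 1, 0.0469 with libraries 2 and 3 only, 0.138 by highest score and 0.216 at 1% mitochondrial UMIs. Ehhadh became -0.589 (S1), -0.535 (S2) and -0.393 (S3) without knockout 3, and -0.138 in S1 without control 3. Acadm in S2 became 0.0825 without control 1, 0.103 with libraries 2 and 3 only and 0.0439 at 1% mitochondrial UMIs. Acadvl in S3 became 0.0298 with libraries 2 and 3 only, and Cpt1a in S3 0.0102 without knockout 1.

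Depth limits sparse members such as Etfb, Acaa2 and Acot2, and the few injured control nuclei.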
